A study of Mus musculus with 6 samples.

Results

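*Cdx1*, *Cdx2*, *Cdx4*, *Evx1* and *Evx2* are the 5 caudal homeobox genes of the mouse that were followed here through a treatment of neuromesodermal progenitors (NMPs) with retinoic acid (RA). They were chosen by name, as every entry under those gene symbols in the tables of all 6 samples, and are 5 of the 20631 genes listed. Each is represented by 1 RefSeq transcript. The *Cdx* genes are vertebrate relatives of *Drosophila caudal* and encode homeodomain transcription factors of the posterior embryo, which act on *Hox* genes and on axis elongation. The *Evx* genes are relatives of *even-skipped* and lie at one end of the HoxA and HoxD clusters. Both families are known to be expressed around the primitive streak and tail bud, where WNT, FGF and RA signals meet, and *Cdx1* is a known target of both WNT and RA signaling.

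The study describes the cells as NMPs, caudal progenitors of spinal cord and presomitic mesoderm. They were made from mouse ESCs by 2 days with bFGF and 1 day with bFGF plus the WNT agonist CHIR99021. All groups were then moved to N2B27 medium lacking both factors, made with a B27 supplement free of retinoids, and kept for 2 h with the DMSO vehicle or with RA at 25 nM or 1 µM, 2 samples per condition. The duplicates are separate dishes of one experiment, which the methods call technical replicates, so that errors and p-values measure only the spread between dishes. The labels give the strain as 129 R1, whereas the methods describe C57BL/6 ESCs, and the 2 sources were not reconciled. The DMSO samples served both RA comparisons, so that the 2 sets of fold changes share their controls.

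Reads assigned to transcripts summed to between 31753556 and 42029348 per sample. All 8 NMP markers examined (*T*, *Sox2*, *Nkx1-2*, *Cdx1*, *Cdx2*, *Tbx6*, *Wnt3a* and *Fgf8*) had a mean above 1 RPKM over the 6 samples (reads scaled to the length of the transcript and to all reads of the sample). Of these, *Cdx1* and *Cdx2* are members followed here and are no independent marker of the cells. The means of the 8 ran from 5.44 RPKM (*Cdx2*) to 374 RPKM (*T*). The 8 primitive streak genes examined were expressed too, with DMSO means from 9.33 RPKM (*Wnt3*) to 154.5 RPKM (*Tdgf1*). With DMSO, *Mesp1* had a mean of 48.6 RPKM and *Eomes* of 47.7 RPKM, against 5.20 RPKM for *Sox2*. The part of each cell type in the samples was not tested. The pluripotency gene *Pou5f1* was also high, with a mean of 452 RPKM. The summed level of 5 pluripotency markers lay between 459 and 495 RPKM over the 6 samples, most of it from *Pou5f1*. Of the 5, only 3 exceeded 1 RPKM, and the lowest was *Esrrb* with a mean of 0.447 RPKM. Of 4 markers of committed neural cells, 1 (*Tubb3*) exceeded 1 RPKM. All 3 endoderm markers examined did so, with means from 4.9 RPKM (*Sox17*) to 13.1 RPKM (*Cxcr4*). The RA treatment was visible in *Rarb*, which encodes an RA receptor, with a log2 fold change (logFC) of 4.53 at 25 nM and 4.89 at 1 µM, and in *Cyp26a1*, which encodes an RA-degrading enzyme, with a logFC of 1.76 and 2.40. In bulk RNA, a change in the number of cells of a type cannot be told apart from a change in RNA per cell.

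Because the members are paralogs, their transcripts were compared for stretches that a 50-base read could not tell apart. The longest identical run was 16 bases between *Cdx1* and *Cdx2*, 17 bases between *Cdx1* and *Cdx4*, 22 bases between *Cdx2* and *Cdx4*, and 32 bases between *Evx1* and *Evx2*. None reached the read length. The longest shared stretches of *Cdx2* with *Cdx4* and of *Evx1* with *Evx2* lie in the second coding exon of each gene, and are shown because they mark where these paralogs are hardest to separate. Capitals mark the shared bases, each sequence is written 5′ to 3′ on the strand of the gene, and positions are of mm10 (GRCm38).
Cdx2, chr5:147303217-147303246, minus strand: agtcGATACATCACCATCAGGAGGAAaagt
Cdx4, chrX:103328089-103328118, plus strand: aataGATACATCACCATCAGGAGGAAgtca
Evx1, chr6:52315902-52315931, plus strand, 30 of the 32 shared bases: CTGGAGAAAGAGTTCTACAGGGAGAACTAC
Evx2, chr2:74657830-74657859, minus strand, the same 30 bases: CTGGAGAAAGAGTTCTACAGGGAGAACTAC

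At the level of RNA, *Cdx1* rose at both RA doses and *Evx1* fell at both. *Cdx2* was slightly higher at 25 nM RA only, by a call that did not hold under every method. *Cdx4* and *Evx2* had very few reads. *Cdx1*, *Cdx2* and *Evx1* were thus the 3 members that passed the filter on low counts. In the edgeR likelihood ratio test, where a gene was called at an adjusted p under 0.1, 3 of the 3 members tested were called at 25 nM RA, 2 higher and 1 lower. Of all 15143 genes tested, 8.05% were called at that dose, 4.5% higher and 3.55% lower. At 1 µM RA 2 members were called, 1 higher and 1 lower, against 19.7% of all genes, 8.54% higher and 11.2% lower. Scaling by total counts changed the split of those calls from 1293 higher and 1690 lower to 976 higher and 1955 lower, with the same calls for the members. Between the 2 RA doses, 0 of the 3 members were called by edgeR's likelihood ratio test, by edgeR's quasi-likelihood test or by DESeq2. For comparison, 3.41% of all genes were called between the doses, 0.792% higher and 2.62% lower at 1 µM. All 3 members had an unadjusted p under 0.05 in both edgeR tests of the doses, and 0 in DESeq2.

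**Figure D1:**
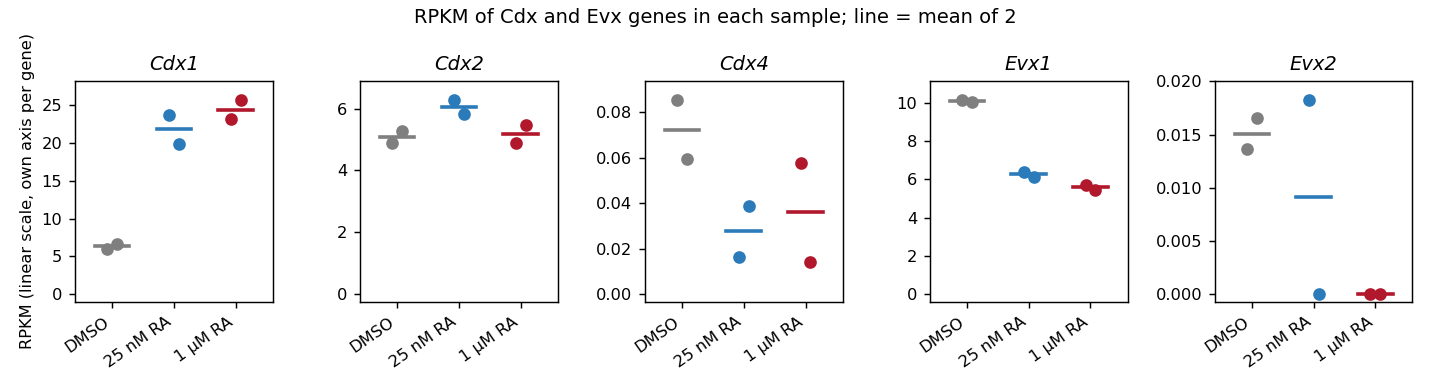
RPKM (y axis, linear, with its own scale for each gene) of the 5 genes in each sample (points) and the mean of the 2 samples per condition (lines). *Cdx1* samples with RA lie between 19.9 and 25.7 RPKM against 6.03 and 6.69 with DMSO, *Evx1* samples with RA all lie below those with DMSO, and *Cdx4* and *Evx2* stay below 0.1 RPKM.

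*Cdx1* (NM_009880, chromosome 18 from 61018862 to 61036199, minus strand) had 543 and 495 reads with DMSO, 1597 and 1685 at 25 nM, and 1762 and 1975 at 1 µM. As levels per length, it had 6.03 and 6.69 RPKM with DMSO, 23.7 and 19.9 at 25 nM, and 23.2 and 25.7 at 1 µM. All 4 RA samples were above both DMSO samples, while the ranges of the 2 RA doses overlapped. The mean was 6.36 ± 0.468 RPKM (SD, n = 2) with DMSO, 21.8 ± 2.70 at 25 nM, and 24.4 ± 1.75 at 1 µM. The logFC was 1.77 at 25 nM RA (SE 0.0848, 95% interval 1.61 to 1.94), with an edgeR adjusted p of 5.85e-95 in the likelihood ratio test and 6.77e-11 in the quasi-likelihood test. At 1 µM RA it was 1.94 (SE 0.0843, 95% interval 1.77 to 2.1), with edgeR adjusted p-values of 1.16e-114 and 1.29e-11. The gene was thus 3.42-fold and 3.83-fold higher than with DMSO. Between the doses, its logFC was 0.16 (95% interval 0.02 to 0.31), with an edgeR adjusted p of 0.323. Without the first sample with 25 nM RA, however, the difference between the doses was 0.28 and passed the threshold, with an edgeR adjusted p of 0.0467.

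*Cdx2* (NM_007673, chromosome 5 from 147300900 to 147307249, minus strand) encodes the paralog that is also required for trophectoderm and intestinal identity. It had 541 and 480 reads with DMSO, 517 and 603 at 25 nM, and 455 and 517 at 1 µM. Per length, these were 4.90 and 5.29 RPKM, 6.27 and 5.81 RPKM, and 4.89 and 5.48 RPKM. The 25 nM samples lay above those of the other conditions, whereas the DMSO and 1 µM samples overlapped. The mean was 5.09 ± 0.278 RPKM (SD, n = 2) with DMSO, 6.04 ± 0.321 at 25 nM, and 5.19 ± 0.421 at 1 µM. At 25 nM RA the logFC was 0.24 (SE 0.0828, 95% interval 0.08 to 0.4), a 1.18-fold difference, with an edgeR adjusted p of 0.0541 in the likelihood ratio test and 0.0961 in the quasi-likelihood test. The call was lost in DESeq2, with an adjusted p of 0.51, and when transcripts were tested in place of genes, with an edgeR adjusted p of 0.601. It was also lost without the first DMSO sample (edgeR adjusted p = 0.529), without the first 25 nM sample (0.407) and without the second 25 nM sample (0.109). The adjusted p of 0.0541 also misses a threshold of 0.05, so that the call was kept in 10 of 16 alternatives and lost in 6.

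At 1 µM RA the logFC of *Cdx2* was 0.02 (SE 0.0845, 95% interval -0.14 to 0.19), with an edgeR adjusted p of 0.911. Between the doses it was -0.22 (95% interval -0.38 to -0.06), with an edgeR adjusted p of 0.167, and without the second 1 µM sample it was -0.30 with an edgeR adjusted p of 0.0865. Markers of other tissues that use *Cdx2* were examined beside it. Of 5 trophectoderm markers, *Gata3* had a mean of 0.0275 RPKM, while the summed level of the list was 3.26 and 2.98 RPKM with DMSO, 4.78 and 4.29 at 25 nM, and 4.64 and 5.26 at 1 µM. Of the 4 tested, *Tfap2c* was higher at both doses (logFC 0.66 and 0.81) and *Krt7* at 1 µM RA (0.58, edgeR adjusted p = 0.0243, after 0.40 at 25 nM). *Hand1* had a logFC of -0.47 and -0.99 (edgeR adjusted p = 0.727 and 0.137) and *Elf5* of 0.11 and 0.42 (edgeR adjusted p = 0.962 and 0.598). None of the 4 intestinal markers exceeded 1 RPKM, and their summed level was 0.696 and 0.67 RPKM with DMSO, 0.737 and 0.717 at 25 nM, and 0.836 and 0.817 at 1 µM. Of the 2 tested, *Vil1* was higher at 1 µM RA (logFC 0.80, edgeR adjusted p = 0.000878), and *Lgr5* had a logFC of -0.33 and -0.41 (edgeR adjusted p = 0.405 and 0.131). Of all genes, 4.5% were called higher at 25 nM RA and 8.54% at 1 µM RA, and these marker lists are too short to set against such shares. The part of other cells in the *Cdx2* level was not tested.

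*Cdx4* (NM_007674, chromosome X from 103321398 to 103330224, plus strand) encodes the paralog on the X chromosome, which acts with the other *Cdx* factors on posterior *Hox* genes. It had 7 and 4 reads with DMSO, 1 and 3 at 25 nM, and 4 and 1 at 1 µM, so that no sample with RA had more reads than either DMSO sample, and 1 had as many as the lower of them. Pooling the samples of a condition gave 11 reads with DMSO (exact Poisson 95% interval 5.49 to 19.7), 4 with 25 nM RA (1.09 to 10.2) and 5 with 1 µM RA (1.62 to 11.7). These correspond to 0.0735 RPKM (0.0367 to 0.132), 0.0289 RPKM (0.00787 to 0.0739) and 0.0359 RPKM (0.0117 to 0.0837). The intervals overlapped and cover counting error only. *Cdx4* did not pass the filter on low counts, and in the fit without that filter it was not called in any comparison. So few reads can neither show nor exclude a change. The transcript model of *Cdx4* that was counted has 1595 bases, against 1963 in the annotation, so that reads in the remainder would not have been counted.

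*Cdx1* was then compared with its paralogs as a ratio of RPKM values within each sample, which does not depend on the scaling between samples. The ratio of *Cdx1* to *Cdx2* was 1.23 and 1.26 with DMSO, 3.79 and 3.43 at 25 nM, and 4.75 and 4.68 at 1 µM. The 2 genes were thus at similar levels without RA, and the ratio was higher in all 4 RA samples, with no overlap between any of the conditions. On the log2 scale the mean ratio was 0.32 with DMSO (SD 0.0276, n = 2), 1.85 with 25 nM RA (SD 0.102) and 2.24 with 1 µM RA (SD 0.0139). The difference from DMSO was 1.53 and 1.92, with an exact two-sided permutation p of 0.333 for each, which is the smallest that 2 against 2 samples can give. The difference between the logFC values of the paralogs in the fit was also 1.53 at 25 nM RA (95% interval 1.3 to 1.77) and 1.92 at 1 µM RA (1.68 to 2.15). Between the doses it was 0.38 (0.16 to 0.6). These intervals treat the genes as independent.

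The ratio of *Cdx1* to *Cdx4* rests on 1 to 7 *Cdx4* reads per sample. It was 70.7 and 113 with DMSO, 1460 and 512 at 25 nM, and 401 and 1800 at 1 µM. All RA samples were above both DMSO samples. The mean log2 ratio differed from DMSO by 3.27 and 3.25, and by 2.19 and 2.28 when 0.1 RPKM was added to each level. Leaving out 1 sample moved these differences to between 2.52 and 4.03 at 25 nM and between 2.17 and 4.33 at 1 µM.

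**Figure D2:**
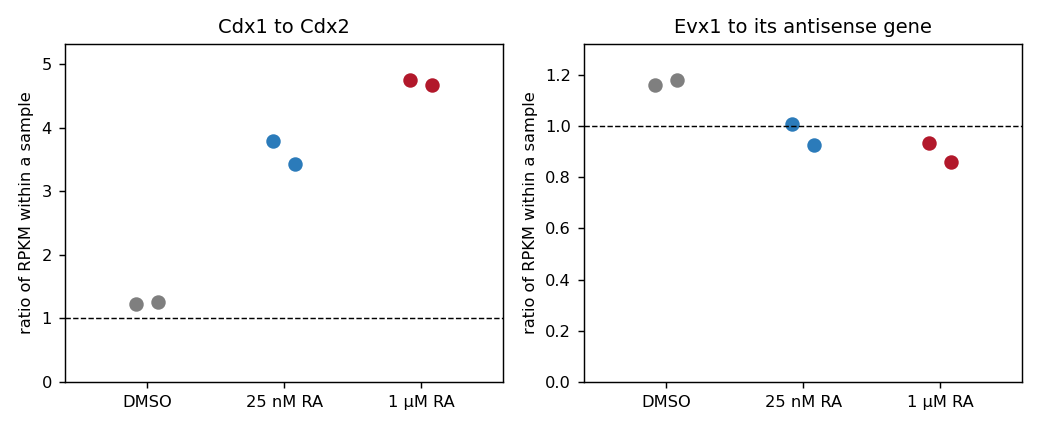
Ratio of RPKM values within a sample (y axis, linear) for *Cdx1* to *Cdx2* and for *Evx1* to its antisense gene; points are samples, and the dashed line marks a ratio of 1. The *Cdx1* to *Cdx2* ratio lies between 1.23 and 1.26 with DMSO and between 3.43 and 4.75 with RA, and that of *Evx1* to its antisense gene falls from 1.16 and 1.18 to between 0.861 and 1.01.

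*Evx1* (NM_007966, chromosome 6 from 52313498 to 52318378, plus strand) encodes a homeodomain factor of the primitive streak. It had 1503 and 1222 estimated reads with DMSO, 705 and 855 at 25 nM, and 715 and 690 at 1 µM. Per length, these were 10.14 and 10.04 RPKM, 6.37 and 6.15 RPKM, and 5.73 and 5.46 RPKM. The conditions did not overlap, and *Evx1* was the most highly expressed member with DMSO, whereas *Cdx1* was so with RA. The mean was 10.1 ± 0.0752 RPKM (SD, n = 2) with DMSO, 6.26 ± 0.157 at 25 nM, and 5.60 ± 0.191 at 1 µM. The logFC was -0.70 at 25 nM RA (SE 0.0632, 95% interval -0.82 to -0.57), with edgeR adjusted p-values of 4.56e-26 in the likelihood ratio and 2.06e-07 in the quasi-likelihood test. At 1 µM RA it was -0.86 (SE 0.0643, 95% interval -0.99 to -0.73), with edgeR adjusted p-values of 6.33e-39 and 1.24e-08. Between the doses it was -0.16 (95% interval -0.3 to -0.03), with an edgeR adjusted p of 0.241.

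**Figure D3:**
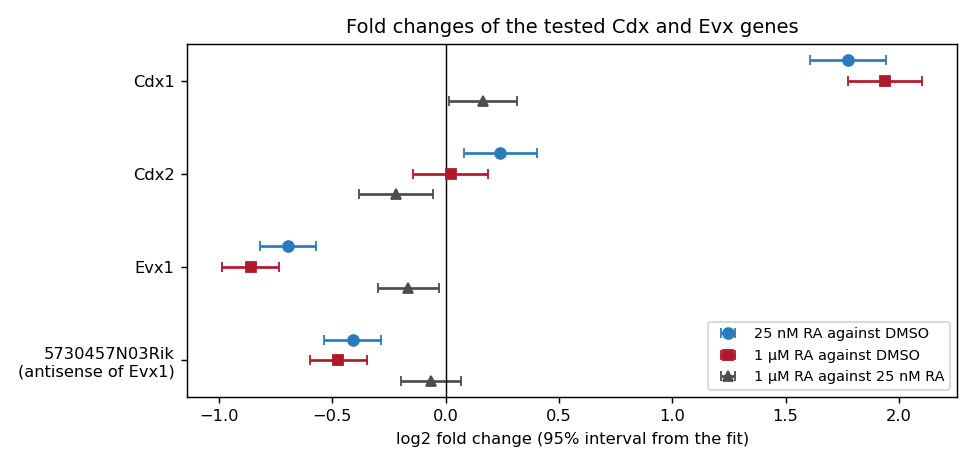
Log2 fold change (x axis) of the 3 members tested and of the antisense gene of *Evx1* in each of the 3 comparisons (symbols), with bars for the 95% interval of the edgeR fit. *Cdx1* lies at 1.77 and 1.94 against DMSO and *Evx1* at -0.70 and -0.86, while *Cdx2* lies at 0.24 and 0.02.

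An antisense gene, 5730457N03Rik (NR_038163, chromosome 6 from 52308389 to 52314832, minus strand, also named *Evx1os*), overlaps the start of *Evx1*. The shared exonic stretch is 73 bases, from 52313498 to 52313570, in the 5′ UTR of *Evx1* and the second exon of the antisense gene, which is 2.54% of the *Evx1* transcript. The estimated counts of the pair summed to whole numbers within 0.02 in 6 of 6 samples although that of *Evx1* was not whole in 4, so that some reads were divided between them. Whether the counting used strand is not stated in the sources used here. As the genes lie on opposite strands, the divided reads were not separated by strand. The antisense gene had 8.74 and 8.47 RPKM with DMSO, 6.34 and 6.63 at 25 nM, and 6.12 and 6.34 at 1 µM. It also fell, by 0.41 on the log2 scale at 25 nM RA (edgeR adjusted p = 1.01e-08) and by 0.47 at 1 µM RA (edgeR adjusted p = 8.81e-12). The ratio of *Evx1* to its antisense gene was 1.16 and 1.18 with DMSO, 1.01 and 0.927 at 25 nM, and 0.936 and 0.861 at 1 µM. The exact two-sided permutation p was 0.333 at each dose, the smallest possible, and this ratio was examined after the values had been seen. With the reads of both genes summed, an analysis also added after seeing the data, the logFC was -0.56 (edgeR adjusted p = 2.03e-23) and -0.67 (edgeR adjusted p = 1.55e-33).

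*Evx2* (NM_007967, chromosome 2 from 74655616 to 74659419, minus strand) is the paralog beside *Hoxd13*, known for its activity in limb and spinal cord. It had 1 and 1 reads with DMSO, 1 and 0 at 25 nM, and 0 and 0 at 1 µM. Pooled by condition, these are 2 reads with DMSO (exact Poisson 95% interval 0.242 to 7.22), 1 at 25 nM (0.0253 to 5.57) and 0 at 1 µM, which allows up to 3.69 reads, or 0.0296 RPKM, by the same interval. The transcript model of *Evx2* in the files is 1428 bases long and close to the 1425 coding bases of the annotation, in which a longer transcript has 4191 bases, so that reads in its UTRs would not have been counted. No statement on a change of *Evx2* can be made at this depth.

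The promoters were searched for short motifs in the window from 250 bases before to 50 bases after the start, with RefSeq sequences of GRCm38.p6. Of the members, *Cdx2*, *Cdx4*, *Evx1* and *Evx2* had an entry. For the first 3 of these the start is that of the transcript in the files, whereas the window of *Evx2* is set on a start at 74659557, which lies 138 bases upstream of it, and positions in *Evx2* are counted from there. The hexamers read by RA receptors (on either strand AGGTCA, its variant with a T, which is AGTTCA, the variant GGGTCA that begins with G, and the variant of that with a T, GGTTCA) occurred in 43.7% of 32851 such windows, and a direct repeat of them with a spacer of 2 or 5 bases in 0.268% and 0.0974%. *Cdx2*, at position 21 from the start, and *Evx2*, at position -40 from its upstream start, each held GGGTCA, which is in capitals.
Cdx2, chr5:147307215-147307238, minus strand: acctgcggcGGGTCAtccccgcct
Evx2, chr2:74659583-74659606, minus strand: aggatgtatGGGTCAttttgacca
The windows of *Evx1* and *Cdx4* held none of these hexamers, and none of the 4 windows held a direct repeat or a TCF/LEF motif (on either strand CTTTGAT, its variant with a final A, which is CTTTGAA, the related motif CTTTGTT, and the variant of that with a final A, CTTTGTA), which 16.9% of all windows contained. CDX motifs (on either strand TTTATG, the variant with a final T, which is TTTATT, and the variant with a C, which is TTTACG) occurred in 29.9% of all windows, and among these in those of *Evx1* and *Evx2*. In *Evx1* the motif appeared in reverse as AATAAA, at positions -229 and -224, and the copies share a base. *Evx2* held matches at -157 and -133. The first of each is shown.
Evx1, chr6:52313260-52313283, plus strand: caaaacaacAATAAAataaaattt
Evx2, chr2:74659700-74659723, minus strand: gagcgtgtaTTTATTtgcttataa
Matches to such short motifs are a description of these windows only.

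The genes next to the members were examined in the same fit. Of the 20 genes taken as the nearest pair on each side of each member, 11 passed the filter. At 25 nM RA 1 was higher and 1 lower, and at 1 µM RA 2 were higher. Of all genes, 8.05% were called at 25 nM RA and 19.7% at 1 µM RA, so that 2 of 11 is near the share of all genes at 1 µM RA. The median logFC of the neighbours was -0.0298 and 0.029, against -0.00051 and 0.00128 for all genes. *Pdgfrb*, which encodes a PDGF receptor and lies on the opposite strand with its start 8951 bases from that of *Cdx1*, had 326 and 258 reads with DMSO, 692 and 770 at 25 nM, and 851 and 890 at 1 µM. Its samples with RA were all above those with DMSO, at a lower level than *Cdx1*, with means of 1.15, 3.13 and 3.68 RPKM. The logFC of *Pdgfrb* was 1.44 (edgeR adjusted p = 1.25e-60) and 1.67 (edgeR adjusted p = 3.38e-86). *Slc6a7*, an amino acid transporter gene 4662 bases from the end of *Cdx1*, had 6 and 5 reads with DMSO, 6 and 17 at 25 nM, and 13 and 15 at 1 µM. Its logFC was 1.15 (edgeR adjusted p = 0.226) and 1.42 (edgeR adjusted p = 0.0306). *Lnp*, 76667 bases from *Evx2*, had a logFC of -0.18 at 25 nM RA (edgeR adjusted p = 0.0268) and -0.07 at 1 µM RA (edgeR adjusted p = 0.437). The posterior *Hox* genes that neighbour *Evx1* and *Evx2* were mostly near 0, and *Hoxd13*, the only one of them tested, had a logFC of -0.20 at 25 nM RA (edgeR adjusted p = 0.875).

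**Figure D4:**
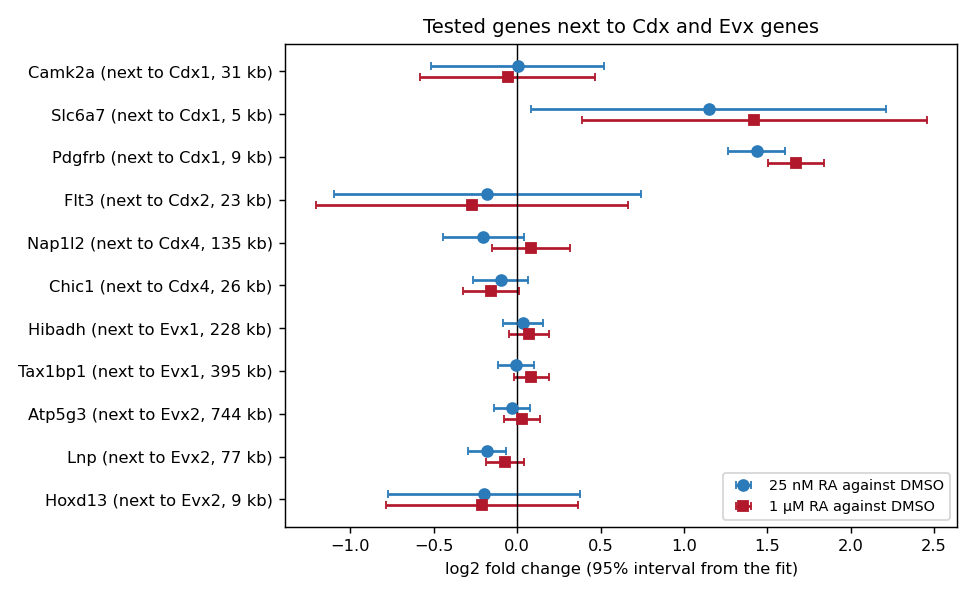
Log2 fold change against DMSO at 25 nM and 1 µM RA of the tested neighbours of each member, with bars for the 95% interval of the edgeR fit. *Pdgfrb* lies at 1.44 and 1.67, and *Lnp* at -0.18 and -0.07.

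Because *Cdx* factors act on trunk *Hox* genes, groups 5 to 9 of these were counted. All 15 genes were listed, but only *Hoxa5* and *Hoxb9* passed the filter, and the other 13 had between 0 and 10 reads per sample. *Hoxa5* rose from 11 and 5 reads with DMSO to 45 and 61 at 25 nM and to 80 and 45 at 1 µM, with a logFC of 2.82 (edgeR adjusted p = 6.73e-12) and 3.05 (edgeR adjusted p = 7.28e-15). *Hoxb9* had a logFC of 0.18 (edgeR adjusted p = 0.899) and -0.47 (edgeR adjusted p = 0.464). Among 6 ParaHox genes, the family to which the *Cdx* genes belong, the only members tested were *Cdx1* and *Cdx2*. *Pdx1*, next in this family, had at most 5 reads in any sample.

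Genes of the caudal region, listed here as caudal WNT and FGF genes together with transcription factors and other WNT pathway genes, moved in both directions. Of 16 genes tested, 4 were higher and 5 lower at 25 nM RA, against 8.05% of all genes called. At 1 µM RA 4 were higher and 7 lower, against 19.7% of all genes called. The median logFC was -0.0155 and -0.0756, against -0.00051 and 0.00128 for all genes. The higher genes were the ligand genes *Wnt8a* (logFC 1.22 and 1.26), *Fgf4* (1.49 and 2.05) and *Wnt3a* (0.18 and 0.21), and the homeobox gene *Nkx1-2* (1.02 and 0.98). For *Wnt3a* at 25 nM RA the edgeR adjusted p was 0.0893 in the likelihood ratio test and 0.117 in the quasi-likelihood test. The lower genes at both doses were the ligand genes *Wnt3* (-0.37 and -0.40) and *Fgf8* (-0.22 and -0.26), the T-box gene *Tbx6* (-0.37 and -0.55), and the WNT effectors *Sp5* (-0.36 and -0.67) and *Lef1* (-0.28 and -0.58). *Sp8* (-0.37) and the WNT feedback gene *Axin2* (-0.26) were lower at 1 µM RA alone by the call, with a logFC of -0.16 and -0.08 at 25 nM RA. Between the doses, 1 of the 16 genes was called higher and 4 lower at 1 µM RA, against 3.41% of all genes called. The higher gene was *Fgf4* (logFC 0.56), and the lower were *Sp5* (-0.32), *Lef1* (-0.30), *Sp8* (-0.21) and *Axin2* (-0.18). In the quasi-likelihood test 1 was higher and 3 lower, without *Sp8*. *T*, which encodes brachyury, had a logFC of -0.005 at 25 nM RA and -0.03 at 1 µM RA.

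Genes of the primitive streak, where *Evx1* is active, also moved in both directions. Of 8 tested, 1 was higher and 4 lower at 25 nM RA, against 8.05% of all genes called. At 1 µM RA 2 were higher and 4 lower, against 19.7% of all genes called. The median logFC was -0.17 and -0.153, against -0.00051 and 0.00128 for all genes. The lower genes were *Mesp1* (-0.57 and -0.58), *Lhx1* (-0.35 and -0.51), *Eomes* (-0.24 and -0.31) and *Wnt3*, which is on both lists. *Nodal*, a TGF-β family ligand, was higher (0.35 and 0.45), and *Mixl1* was higher at 1 µM RA (0.20). Of 3 endoderm markers, 2 were lower at both doses, *Sox17* (logFC -0.58 and -0.98) and *Foxa2* (-0.37 and -0.56). The third, *Cxcr4*, had a logFC of -0.06 and -0.07 (edgeR adjusted p = 0.833 and 0.626). The summed level of the 3 markers was 34.3 and 34.9 RPKM with DMSO, 28.1 and 28.9 at 25 nM, and 25.0 and 27.2 at 1 µM. Of 4 markers of fibroblast feeders, 0 were called at 25 nM RA. At 1 µM RA 3 were lower, against 11.2% of all genes lower. These were *Col1a1* (logFC -0.48), *Col1a2* (-0.27) and *Postn* (-0.58), whereas *Thy1* had a logFC of 0.06. The summed level of the 4 was 5.41 and 5.62 RPKM with DMSO, 5.19 and 5.46 at 25 nM, and 4.89 and 4.73 at 1 µM. The part of endoderm or feeder cells in the fall of *Evx1* was not tested.

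**Figure D5:**
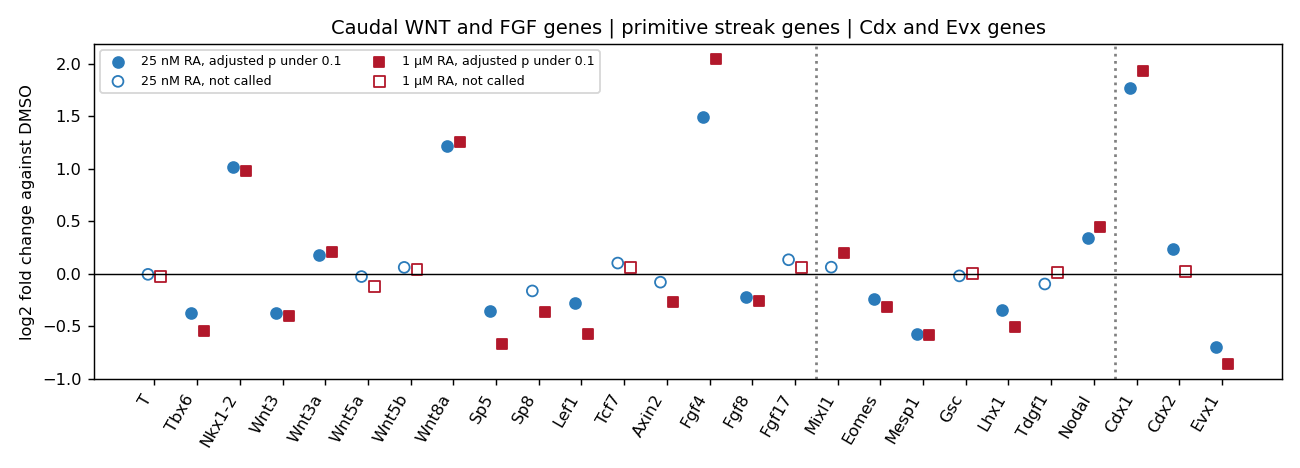
Log2 fold change against DMSO at 25 nM and 1 µM RA of the tested caudal WNT and FGF genes and primitive streak genes, beside the members; filled symbols have an edgeR adjusted p under 0.1 and open symbols do not. *Fgf4*, *Wnt8a* and *Nkx1-2* lie with *Cdx1* above 0, and *Mesp1* and *Tbx6* lie with *Evx1* below it.

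The genes whose 2 logFC values lay nearest to those of *Cdx1*, by Euclidean distance among 2545 called genes with a mean above 1 RPKM, were *Kcna5* (distance 0.0584), AI661453 (0.134), *Ngfr* (0.189), *Mnx1* (0.197) and *Tet2* (0.21). Those nearest to *Evx1* were *Id1* (0.0479), *Zfp608* (0.0538), *Foxj2* (0.075), *Snora5c* (0.0786) and *Mesp2* (0.0928). Both distances rest on the same 6 samples and the same DMSO controls.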

How the data were processed

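RNA-seq of 6 samples was analysed. Total RNA without ribosomal RNA had been sequenced from a stranded kit as single-end reads of 50 bases, and the submitters' processing notes name TopHat2 2.0.13, Bowtie2 2.2.5.0, Partek 6.6 and mm10. The estimated counts per RefSeq transcript were deposited by the authors without normalization, from an expectation-maximization step. The deposited RPKM values scale these reads to transcript length and to the sample's reads. Groups were taken from the sample titles.

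Estimated counts were summed per gene, rounded and fitted in edgeR 4.0.16 (R 4.3.3) with TMM, filterByExpr and the likelihood ratio test for all 6 samples, with Benjamini-Hochberg adjustment over 15143 genes. Alternatives were the quasi-likelihood test, DESeq2 1.42.0, other scalings and filters, an adjusted p under 0.05, single transcripts, a replicate block, and leaving out each sample. On simulated data with 200 genes changed 2-fold, 197 were recovered with 230 calls, of which 33 were of genes left unchanged. The quasi-likelihood test also recovered 197, with 223 calls, of which 26 were of unchanged genes. In both tests the share of such calls was above the threshold of 0.1, so that calls near the threshold are less certain than it states. Smaller changes were not simulated. Replicate numbers did not pair the samples (correlation of deviations from -0.0615 to 0.0484). RPKM was used for levels only. Ratios were compared by exact permutation tests in Python 3.11.15 with scipy 1.17.1. The members and gene lists were chosen with earlier results of these data known. Named genes were the members, listed genes called at either dose, *Rarb* and *Cyp26a1*, and the 5 genes nearest to *Cdx1* and *Evx1*. A few others (*T*, *Hoxb9*, *Hoxd13*, *Pdx1*, *Pou5f1*, *Gata3*, *Tubb3* and other marker genes) are named as values beside a count.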

Additional observations from a re-analysis of the deposited data

How the results depend on the processing

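*Cdx1* and *Evx1* against DMSO kept their direction and their calls under every alternative run. Leaving out each sample in turn gave a logFC of 1.655 to 1.893 and 1.856 to 2.02 for *Cdx1*, and of -0.7121 to -0.6756 and -0.9047 to -0.8167 for *Evx1*. The replicate block changed no member call: the values were 1.774 and 1.938 for *Cdx1*, 0.239 for *Cdx2* at 25 nM RA (edgeR adjusted p = 0.0715), and -0.6936 and -0.8592 for *Evx1*. *Cdx2* at 1 µM RA ranged from -0.05498 to 0.09257 with a sample left out, and turned to -0.04207 without the first DMSO sample and to -0.05498 without the second 1 µM sample. The members higher at 25 nM RA, and the ParaHox genes called there, numbered 1 in place of 2 in DESeq2, in the test of transcripts and at an adjusted p under 0.05, and 1 to 2 with a sample left out. Between the doses, members higher numbered 0 to 1 and members lower 0 to 1 with a sample left out. The *Cdx1* to *Cdx4* log2 difference at 25 nM RA was 2.194 with 0.1 RPKM added.

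Neighbours called at 25 nM RA numbered 1 in DESeq2 and 1 to 2 with a sample left out, and at 1 µM RA 1 in DESeq2, 1 with a filter of 1 CPM, and 1 to 2 with a sample left out. Without a filter on low counts, 1 posterior *Hox* gene was called at each dose (*Hoxa10*, with 0 reads in both DMSO samples) and 2 trunk *Hox* genes at 1 µM RA. These 2 were *Hoxa5*, which was higher, and *Hoxb8*, which was lower (logFC -2.80, edgeR adjusted p = 0.0818) on few reads. Over all genes, DESeq2 called 385 higher and 182 lower at 25 nM RA, 726 and 868 at 1 µM RA, and 39 and 119 between the doses. The test of transcripts called 318 lower at 25 nM RA, 839 higher and 994 lower at 1 µM RA, and 242 lower between the doses. Between the doses, the quasi-likelihood test called 77 higher and 259 lower, and an adjusted p under 0.05 gave 74 higher. With a sample left out, the calls ranged from 294 to 606 lower at 25 nM RA, from 782 to 1360 higher and 1126 to 1637 lower at 1 µM RA, and from 48 to 223 higher and 145 to 354 lower between the doses. With 2 dishes per condition, small differences such as that of *Cdx2* and those between doses are at the limit of what these data resolve. Low counts kept *Cdx4* and *Evx2* out of the main test, and neither was called in the fit without a filter.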
